A study of Mus musculus with 9 samples.

Results

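Kinesins are motor proteins that walk along microtubules and use ATP to do so. The family comprised 45 genes here, of 23390 in the table: every gene whose first listed name was Kif with a number and at most 1 trailing letter, plus Kifc1, Kifc2, Kifc3, the kinesin-2 accessory gene Kifap3 and the light chains Klc1, Klc2, Klc3 and Klc4. These genes held 60 of the 29661 transcript rows. Cenpe and Kifc5b encode kinesins but do not meet that naming rule, and are given only beside the members they resemble.

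The tissue was testis of C57BL/6 mice at postnatal day 10. RNA-seq was made from 3 libraries labelled Lin28a knockout, whose titles carry the abbreviation cKO, and 3 labelled wild type. The sources used here give neither the promoter of any recombinase nor whether each library is 1 animal. A further 3 samples of RNA recovered with LIN28A protein were not analysed here. The expression table has 1 pooled FPKM value per group (fragments scaled to transcript length and sequencing yield), under the column names case and control, plus the authors' own test between them. It holds no spread between libraries and no depth, so no SD or n accompanies any FPKM value. The case column was read as the knockout by its name. Lin28a itself (NM_145833) stood at 23.4 FPKM in the case column and 8.82 FPKM in the control column (p = 5.62e-07 per the authors' deposited table). The column names and the level of the targeted gene are thus at odds, and directions below follow the column names alone.

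A kinesin has a motor domain that binds the microtubule and a tail that binds cargo, other motors or light chains. Some carry vesicles, organelles and protein complexes, others run along cilia, and another set builds the spindle, moves chromosomes and completes division of the cell. In the testis, kinesins serve the divisions of spermatogonia and the meiotic divisions, and later the shaping of the sperm head and tail. At postnatal day 10 the most advanced germ cells are in the prophase of meiosis, and spermatogonia and somatic cells are still dividing by mitosis.

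Kinesin transcript levels barely differed between the columns. Of the 45 genes, 41 had a mean level of at least 1 FPKM and were analysed, and their differences of log2(FPKM + 1), case minus control, ran from -0.26 for Kif9 to 0.22 for Kif1a. Because 1 is added to each value, these differences understate the change of genes at low levels. The authors' table tested 46 of the 60 rows, in 39 genes, and 0 of them passed a q-value of 0.05, where 0.0514% of all 13629 tested rows did. At an unadjusted p under 0.05 the count was also 0, against 1.28% of all tested rows, and the smallest p of a kinesin row was 0.192, for a row of Kif1b, in the authors' deposited table. With 46 rows, counts of 0 lie close to both background shares. No other test could be run on 1 value per group.

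The family also varied little among its members. The median difference was -0.01, beside 0.03 over all 12666 genes analysed, and 17 kinesins were higher and 24 lower in the case column, where 60.8% of all genes were higher. After median-of-ratios rescaling of the columns, which centres all genes on 50% higher, the kinesins split 12 higher and 29 lower with a median of -0.04. By a fold of 1.5 on this scale, 0 of the 41 kinesins differed, beside 1.29% of all genes, so this count too lies near the background. The difference was under 0.1 in size for 27 of the 41 kinesins (65.9%), and for 53.4% of all genes. Among genes with a mean of at least 5 FPKM, the median size of the difference was 0.05 for 29 kinesins and 0.08 for 9421 genes of any kind. All 41 members lay inside the central 95% of all genes, from -0.34 to 0.36. That range holds 95% of all genes by definition, so this count too lies near the background.

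**Figure D1:**
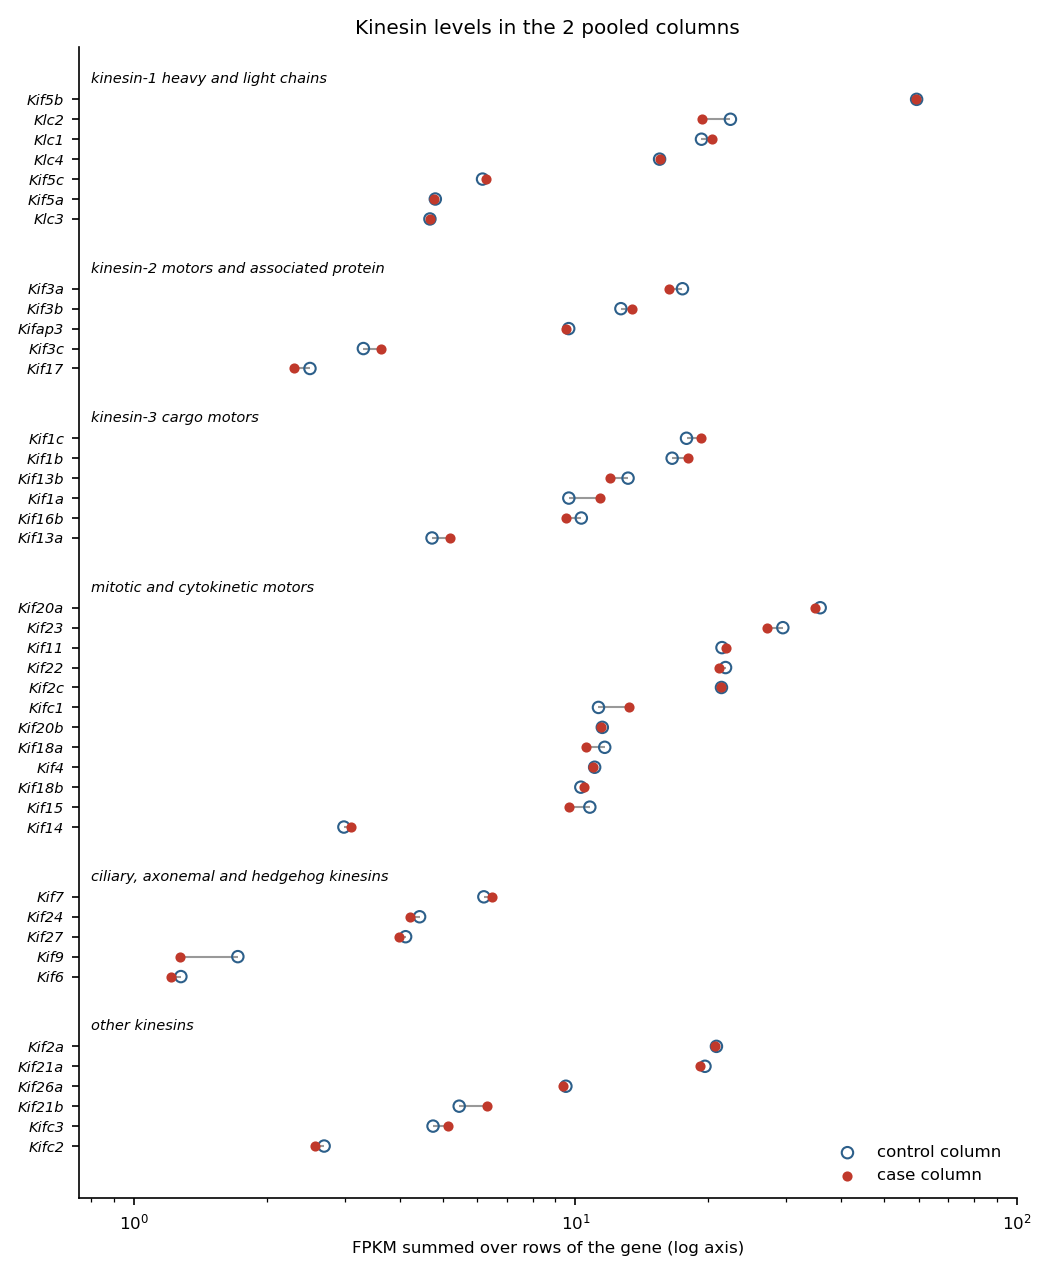
FPKM of the 41 analysed kinesins in the control column (open circles) and the case column (filled circles), on a log axis, grouped by role. The 2 symbols overlap or nearly overlap for most genes, with Kif5b highest near 59 FPKM and the widest gap at Kif9, at 1.27 and 1.72 FPKM.

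The promoter windows of the division motors shared an element, a feature the naming rule did not use. The cell cycle homology region, TTTGAA, is a short promoter element of genes that are transcribed late in the cell cycle, and is bound by the MuvB complexes that repress them in resting cells and activate them before mitosis. RefSeq promoter windows (GRCm38.p6, 250 bases before to 50 bases after the annotated start) matched 36 of the 45 kinesins. TTTGAA was searched on both strands, so that TTCAAA in the printed strand is the same element. It was present in 10 of the 11 mitotic and cytokinetic motors with a window (90.9%), in 3 of the 25 other kinesins (12.0%), and in 20.2% of all 27025 genes with a window. The spindle midzone and chromosomal passenger genes, which act beside these motors, held it in 8 of 12 windows (66.7%).

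Within 25 bases of the start site, a distance chosen after the positions were seen, 8 of the 11 mitotic and cytokinetic motors held the element, against 3.16% of all genes, 1 of the 25 other kinesins and 6 of the 12 midzone and passenger genes. These 8 are shown because they carry that contrast. Each line gives 30 bases of the gene's own strand, 5′ to 3′, with the element in capitals:
Kif11: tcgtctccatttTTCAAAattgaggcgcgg
Kif15: tggggcgccaaaTTCAAAtctgcggccatc
Kif22: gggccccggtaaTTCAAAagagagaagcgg
Kifc1: cggaggttgaaaTTCAAAagtggcgggtgt
Kif4: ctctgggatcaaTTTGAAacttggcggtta
Kif18b: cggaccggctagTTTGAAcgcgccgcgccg
Kif23: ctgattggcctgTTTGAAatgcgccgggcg
Kif20b: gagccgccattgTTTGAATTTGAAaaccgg

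The windows lie at chr19:37376351-37376380 (plus strand) for Kif11, chr9:122951050-122951079 (plus) for Kif15, chr7:127042420-127042449 (minus) for Kif22 and chr17:33890615-33890644 (minus) for Kifc1. Those of the others are chrX:100626072-100626101 (plus) for Kif4, chr11:102925104-102925133 (minus) for Kif18b, chr9:61946780-61946809 (minus) for Kif23 and chr19:34922353-34922382 (plus) for Kif20b. Kif20b holds the element 2 times in a row. In Kif14 and Kif2c the element lies farther upstream, 228 and 103 bases before the start, and in Kif18a it was not found in the window. Kif20a, the remaining division motor, had no matched window and was not searched for the element. The CCAAT box, the site of the factor NF-Y, was searched on both strands too. Neither motif contains the other. CCAAT was present in 7 of the 11 division motors, in 11 of the 25 other kinesins and in 41.1% of all genes with a window, so its share differed less than that of TTTGAA. The variant TTTAAA, its own complement on the other strand, was in 2 of the 11 and in 14.9% of all genes. These matches describe letters in the windows and are not evidence of binding.

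**Figure D2:**
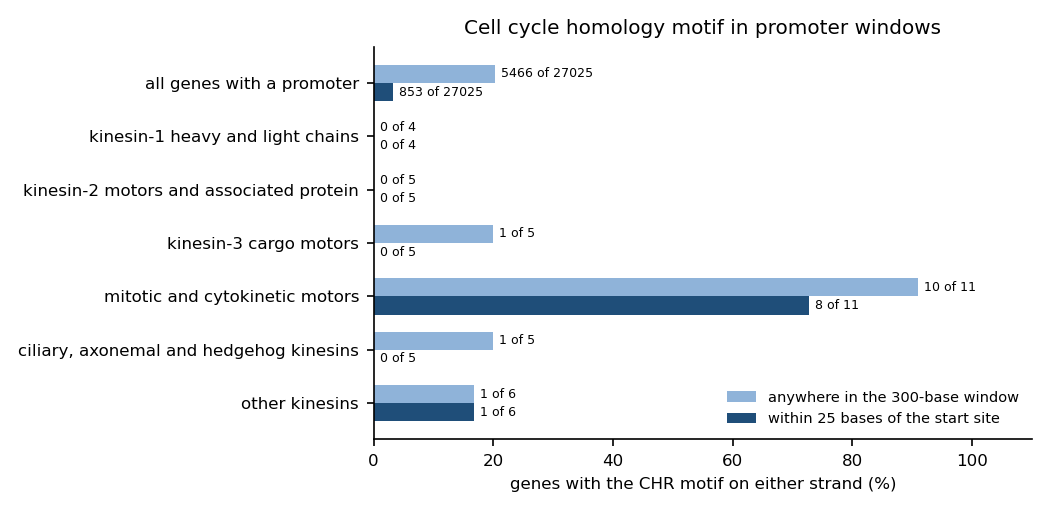
Share of genes, in percent, whose RefSeq promoter window holds TTTGAA on either strand, for all genes and for each kinesin group, anywhere in the 300 bases (light bars) and within 25 bases of the start (dark bars). The mitotic and cytokinetic motors stand at 90.9% and 72.7%, all genes at 20.2% and 3.16%.

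The division motors were among the more abundant kinesins, and their levels stayed close between columns. Over the 12 genes the median difference was -0.01, with 4 higher and 8 lower in the case column, and 2 higher and 10 lower after rescaling. Their FPKM summed to 196 in the case column and 200 in the control column. Of their 14 tested rows, 0 had p under 0.05 in the authors' deposited table, beside 1.28% of all tested rows, so that count lies near the background. Markers of the mitotic cell cycle had a median difference of 0.06 over 15 genes, with 9 higher and 6 lower. After rescaling, 8 of these markers were higher and 7 lower, with a median of 0.03. Of them, Top2a was lower in the case column, at 77.3 and 93.6 FPKM, and Mcm2 higher, at 71.1 and 67.3 FPKM.

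Motors of the central spindle and of abscission ranged from the most to the least abundant of the group. Kif20a, which moves the chromosomal passenger complex to the central spindle at anaphase, was at 34.9 FPKM in the case column and 35.9 FPKM in the control column. Kif23, the motor of the centralspindlin complex that sets the division plane, was at 27.2 and 29.5 FPKM, and the authors' deposited table gives p = 0.631. Its binding partner Racgap1 summed to 49.5 and 50.9 FPKM over its rows. The leading row of Racgap1 was lower in the case column and its other rows higher, so this sum joins opposite directions. Kif4, a chromosome-bound motor that also limits the length of the central spindle, was at 11.0 and 11.1 FPKM. Kif20b, which acts late in cytokinesis, was at 11.5 FPKM in both columns. Kif14, a motor that binds PRC1 and citron kinase at the midbody, was the least abundant, at 3.10 and 2.99 FPKM.

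Motors that build the spindle and move chromosomes showed the same closeness. Kif11, which slides antiparallel microtubules apart to make the spindle bipolar, was at 21.9 FPKM in the case column and 21.5 FPKM in the control column. Kif15, which can sustain a bipolar spindle beside KIF11, was at 9.67 and 10.8 FPKM, the lowest difference of the group at -0.14 (p = 0.569 per the authors' deposited table). Kif22, a chromosome-arm motor, was at 21.2 and 21.9 FPKM. Kif2c, a depolymerase that corrects faulty kinetochore attachments, was at 21.4 FPKM in both columns. Kif18a, a depolymerase that damps chromosome oscillation and whose mutation depletes germ cells in mice, was at 10.6 and 11.7 FPKM, while its paralog Kif18b stood at 10.5 and 10.3 FPKM. KIF18A and KIF18B transcripts were thus near parity, with 50.3% of the pair's FPKM from Kif18a in the case column and 53.1% in the control column. Cenpe, the kinetochore kinesin outside the naming rule, was at 13.7 and 14.0 FPKM.

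Kifc1 had the highest value of the division motors relative to control. This minus-end motor crosslinks and focuses spindle microtubules and is also needed for shaping the sperm head. Kifc1 (NM_001195298, mm10 chromosome 17, 33875666 to 33890633) was at 13.2 FPKM in the case column and 11.3 FPKM in the control column, a difference of 0.21, and the authors' deposited table gives p = 0.468. Kifc5b, a close copy of Kifc1 outside the naming rule, was at 5.31 and 5.06 FPKM. Reads of near-identical copies can be split between such genes, so both levels are uncertain.

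**Figure D3:**
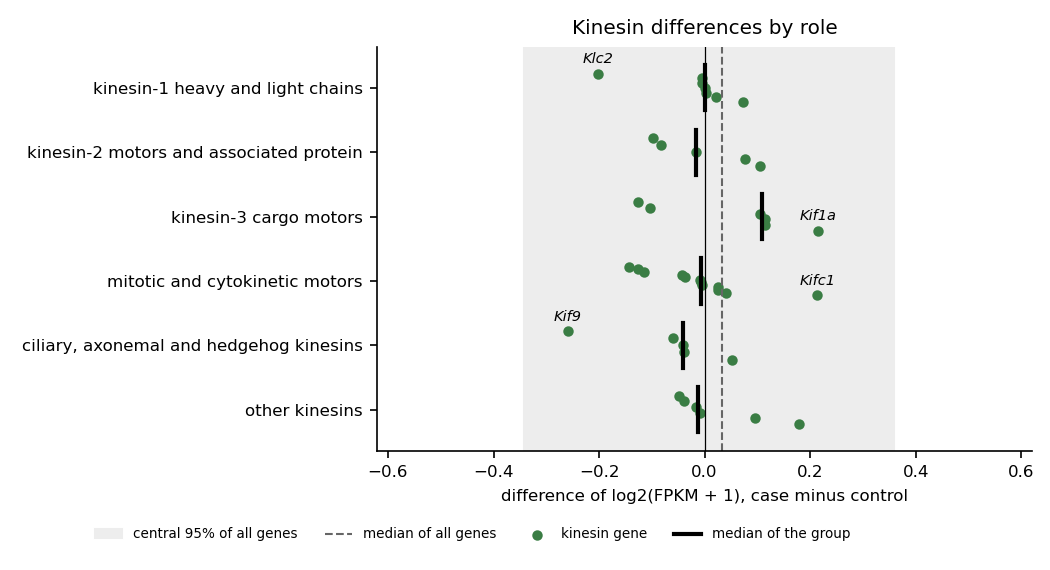
Difference of log2(FPKM + 1), case minus control, for each analysed kinesin (points), with the median of each role group (black bars), the median of all genes (dashed line, 0.03) and their central 95% (grey band, -0.34 to 0.36). All kinesins lie inside the band, with Kif9 and Klc2 lowest and Kifc1 and Kif1a highest.

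Conventional kinesin, kinesin-1, is a heavy chain dimer with 2 light chains that bind cargo such as vesicles, mitochondria and RNA granules. Over its 7 genes the median difference was 0.00, with 4 higher and 3 lower in the case column. After rescaling the median was -0.04 with 1 higher and 6 lower, so the direction depended on the scaling. The widely expressed heavy chain Kif5b was the most abundant kinesin of the table, at 59.1 FPKM in the case column and 59.3 FPKM in the control column, above 91.5% of the genes analysed. The neuron-enriched heavy chains Kif5a and Kif5c were at 4.80 and 4.82 FPKM and at 6.27 and 6.16 FPKM. Kif5b made up 84.2% of heavy chain FPKM in the case column and 84.4% in the control column, so the make-up of the heavy chains matched closely.

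The light chains were more evenly shared. Klc2 (NM_008451, mm10 chromosome 19, 5107746 to 5118408) was at 19.4 FPKM in the case column and 22.5 FPKM in the control column, a difference of -0.20, and the authors' deposited table gives p = 0.439. A further row of Klc2, a non-coding transcript with no gene name in the table and so outside the naming rule, was at 6.48 and 6.67 FPKM. Klc1 was at 20.3 and 19.3 FPKM, Klc4 at 15.5 FPKM in both columns and Klc3, a light chain of the sperm tail, at 4.69 and 4.68 FPKM. Klc1 held 33.9% of light chain FPKM in the case column against 31.2% in the control column, and Klc2 32.3% against 36.2%. With its unnamed row added, a choice made after seeing the data, Klc2 was at 25.9 and 29.1 FPKM and led the light chains in both columns, at 38.9% and 42.4%.

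The kinesin-2 motors drive anterograde transport along cilia and carry cargo in the cytoplasm. KIF3A and KIF3B pair with the accessory protein KIFAP3 in a heterotrimer. Kif3a was at 16.3 FPKM in the case column and 17.5 FPKM in the control column, Kif3b at 13.4 and 12.7 FPKM, and Kifap3 at 9.53 and 9.66 FPKM. The order Kif3a, Kif3b, Kifap3 was the same in both columns, and the 2 motors lay on opposite sides of 0. Kif3c, an alternative partner of KIF3A, was at 3.63 and 3.31 FPKM. Kif17, a homodimeric motor that in spermatids carries a partner of the transcription factor CREM, was at 2.31 and 2.50 FPKM. The group's median difference was -0.02, with 2 of 5 higher. By the highest row of each gene it turned to 0.08.

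Kinesin-3 cargo motors had the highest median of the 6 groups, at 0.11. Of these motors, 4 of 6 were higher in the case column, near the 60.8% of all genes. Rescaling left the split at 4 of 6, beside 50% of all genes, with a median of 0.07. By the highest row of each gene the median was 0.06, below the 0.08 of the kinesin-2 group, so that order depended on how rows were joined. Kif1a (NM_001110315, mm10 chromosome 1, 93015456 to 93101865), which carries synaptic vesicle precursors in neurons, had the largest positive difference of all kinesins, at 11.4 FPKM in the case column and 9.66 FPKM in the control column, or 0.22, and the authors' deposited table gives p = 0.353. Kif1b, which moves mitochondria and vesicles, was at 18.0 and 16.6 FPKM, and Kif1c, which works between the Golgi and the endoplasmic reticulum, at 19.3 and 17.9 FPKM. All 3 KIF1 genes were higher in the case column, and their summed FPKM was 48.7 against 44.1. The leading row of Kif1b alone differed by 0.01. The endosomal motor Kif16b was on the other side, at 9.54 and 10.3 FPKM. The KIF13 pair split as well, with Kif13a, which delivers cargo from the trans-Golgi network, at 5.21 and 4.73 FPKM and Kif13b at 12.0 and 13.2 FPKM.

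Kinesins of cilia and the axoneme were the least abundant of the role groups. Kif9 (mm10 chromosome 9, 110476958 to 110525174), a motor of the sperm flagellum, had the most negative difference of the family, at 1.27 FPKM in the case column and 1.72 FPKM in the control column, or -0.26. Both of its rows lay lower, and the authors' deposited table gives them p = 0.462 and 0.733. Kif6, an axonemal paralog of Kif9, was at 1.21 and 1.28 FPKM, and Kif19a, which limits cilium length, at 0.431 and 0.474 FPKM, under the limit for analysis. Kif24, which acts on the mother centriole to hold back cilium growth, was at 4.21 and 4.44 FPKM, and Kif27, a paralog of Kif7, at 3.98 and 4.12 FPKM. Kif7, which organises the ciliary tip for hedgehog signalling, was the single gene of the 5 analysed that was higher in the case column, at 6.47 and 6.20 FPKM. The median of these 5 was -0.04.

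Of the remaining kinesins, Kif2a, a microtubule depolymerase, was at 20.8 and 20.9 FPKM. Its close relative Kif2c accounted for 50.7% of kinesin-13 FPKM in the case column and 50.6% in the control column, while Kif2b was at 0.0374 and 0.0363 FPKM. Kif21a, which restrains microtubule growth, was at 19.1 and 19.7 FPKM. All 4 of its rows carry the status FAIL in the authors' deposited table, which gives no usable p-value for them. Its paralog Kif21b was at 6.31 and 5.45 FPKM, a difference of 0.18, and the authors' deposited table gives p = 0.433. Kif26a, an atypical kinesin that restrains GDNF receptor signalling in the gut, was at 9.40 and 9.52 FPKM. The minus-end motors Kifc2 and Kifc3 were at 2.57 and 2.70 FPKM and at 5.15 and 4.76 FPKM. Kif26b was at 0.181 and 0.192 FPKM, and Kif12 at 0.0377 FPKM in the case column and listed at 0 in the control column.

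Rows of 1 gene could differ in direction or size. Of the 45 genes, 10 had more than 1 row. Klc1 (mm10 chromosome 12, 111758849 to 111813841) had 3. Its row NM_008450 was at 7.96 FPKM in the case column and 10.2 FPKM in the control column, or 39.1% and 52.7% of the gene. Row NM_001025360 was at 6.07 and 3.83 FPKM, or 29.8% and 19.8% of the gene, and row NM_001081959 at 6.33 and 5.31 FPKM. The leading row was lower and the other rows higher in the case column, so the difference turned from 0.07 for the sum to -0.32 for the leading row alone. All 3 carry the status FAIL in the authors' deposited table, which gives no usable p-value for them.

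In Kif1b the rows differed while the total was higher. Its row NM_207682 was at 12.4 FPKM in both columns, while NM_008441 was at 5.57 FPKM in the case column and 4.20 FPKM in the control column, and the authors' deposited table gives p = 0.192. The higher total of Kif1b thus came from its less abundant row, and the difference of the leading row alone was 0.01. In Kif17, NM_001190978 was at 1.48 and 1.32 FPKM and NM_010623 at 0.824 and 1.18 FPKM, on opposite sides. In Kif20a, Kif21a, Kif5a and Kifc3 the leading row held most of the gene in both columns, from 60.5% to 90.6%. The sources used here do not say how the authors divided fragments among rows of a gene, so row values of 1 gene are not independent.

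**Figure D4:**
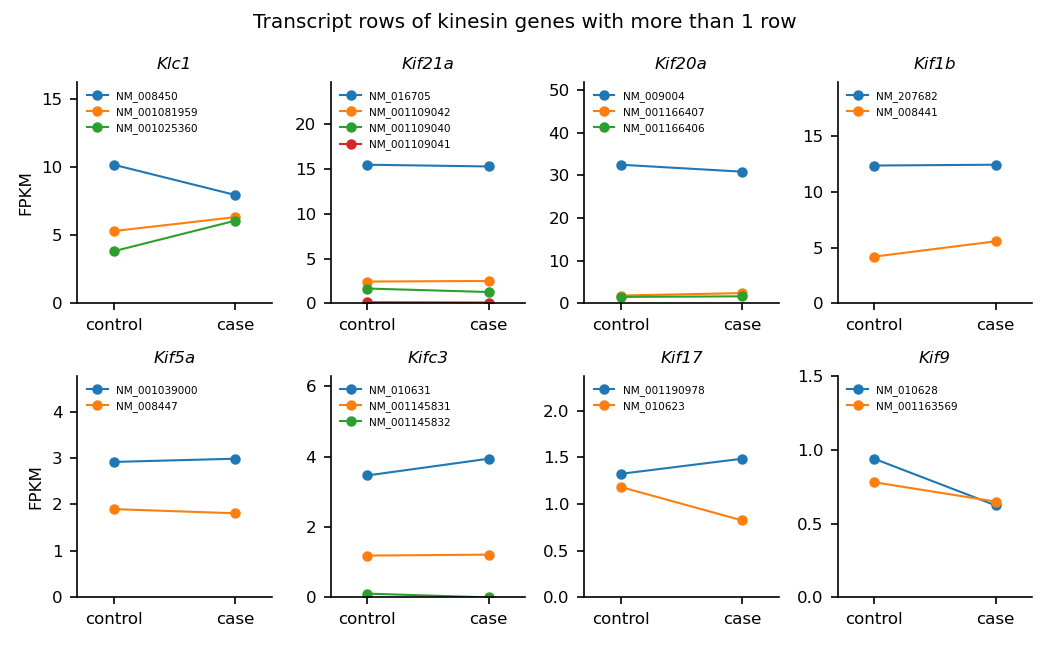
FPKM of each transcript row in the control and case columns for 8 kinesin genes with more than 1 row; each line joins the values of 1 row, and each panel has its own axis from 0. The rows of Klc1 converge in the case column, those of Kif17 part, and the leading rows of Kif21a, Kif20a and Kif1b stay nearly level.

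Some kinesin loci overlap neighbouring genes. The deposited loci of 9 members overlap another protein-coding gene of the RefSeq table. That of Kif20a spans 53122 bases around a gene of 8654 bases and takes in Brd8 and Cdc23, that of Kif7 spans 53991 bases around a gene of 17675 bases and takes in Ticrr, and that of Klc3 spans 17818 bases and takes in Ercc2. The sources used here do not say whether counting used the strand, so these levels are uncertain.

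Genes that work with kinesins were described in 5 lists. Of their 98 tested rows, 0 passed a q-value of 0.05, beside 0.0514% of all tested rows, so a count of 0 lies near the background. In some lists single differences reached farther from 0 than in the kinesins, from -0.30 to 0.45 among the tubulins. Those of the spindle midzone and chromosomal passenger genes ran from -0.07 to 0.18, a narrower range than that of the kinesins. Cargo adaptors of kinesins had a median of 0.01 over 16 genes, with 8 higher and 8 lower in the case column. Arl8b and Arl8a, small GTPases that link lysosomes to kinesin-1, were at 30.6 and 30.7 FPKM and at 30.9 and 29.2 FPKM, and the mitochondrial adaptor Trak1 at 21.9 and 21.0 FPKM. Dynein and dynactin, the opposing minus-end motor and its activator, had a median of 0.03 over 24 genes with 15 higher. Their most abundant members, the light chains Dynlrb1, Dynll2 and Dynll1, were at 137 and 131, 110 and 112, and 103 and 104 FPKM.

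Spindle midzone and chromosomal passenger genes had a median of 0.03 with 10 of 15 higher. Cdca8, a passenger complex subunit, was at 40.8 and 41.4 FPKM, and Numa1, a spindle pole protein, at 38.9 and 38.1 FPKM. Of the 16 tested rows of this list, 1 had p under 0.05, beside 1.28% of all tested rows: Racgap1 NM_001253809 was at 5.97 FPKM in the case column and 2.96 FPKM in the control column; the authors' deposited table gives p = 0.0420 and a q-value above 0.05. Its leading row NM_001253808 was at 40.8 and 45.6 FPKM. Intraflagellar transport genes, whose protein trains kinesin-2 pulls, had a median of -0.04 with 9 of 23 higher. Ift43 was at 54.0 and 51.4 FPKM, Ift20 at 46.0 and 47.0 FPKM and Ift74 at 25.1 and 28.4 FPKM. Tubulins, the track itself, had a median of 0.01 with 10 of 16 higher, led by Tubb4b at 430.4 and 427.9 FPKM, Tuba1b at 356 and 349.6 FPKM and Tubb5 at 343 and 339.5 FPKM. After rescaling, the medians of all 5 lists lay below 0, so that sign depended on the scaling in every list but the intraflagellar one, which was below 0 either way.

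The same columns lay farther apart for markers of some cell types. All 19 meiotic prophase markers analysed were lower in the case column, with a median of -0.56. Of these, 9 were past 1.5-fold, as were 0.782% of all genes in that direction. Of their rows, 6 of 20 were lower at an unadjusted p under 0.05 by the authors' deposited table, as were 0.631% of all tested rows. The axial element gene Sycp3, the most abundant of these markers, stood at 69.2 FPKM in the case column and 125 FPKM in the control column. It has no tested row in the authors' deposited table. Syce2, the next most abundant, was closer, at 82.9 and 89.3 FPKM, a difference of -0.11. Leydig cell markers had a median of 0.27 with 10 of 10 higher (9 of 10 after rescaling), peritubular and stromal markers 0.22 with 12 of 12 higher (11 of 12 after rescaling), and endothelial markers 0.22 with 9 of 10 higher on both scales. By the authors' unadjusted p under 0.05, 1 of 9 Leydig rows was higher and 0 lower, beside 1.28% of all tested rows in either direction. The count was 0 of 14 peritubular and stromal rows and 0 of 11 endothelial rows, near the 1.28% of all tested rows. In these lists and the meiotic list, 0 rows passed a q-value of 0.05, beside 0.0514% of all tested rows. Sertoli cell markers (median 0.05, 8 of 15 higher) and markers of undifferentiated spermatogonia (median 0.04, 9 of 12 higher, Lin28a among them) had medians near that of all genes. The Sertoli gene Rhox5, named after its value was seen, stood apart at 8.90 and 19.3 FPKM (p = 0.0254 per the authors' deposited table). The labelled tissue was borne out by abundant Sertoli and Leydig products, such as Clu at 2028 and 2251 FPKM and Insl3 at 99.6 and 76.9 FPKM. The part of these markers in any kinesin value was not tested. In bulk tissue, fewer cells of a type and less RNA per cell cannot be told apart.

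**Figure D5:**
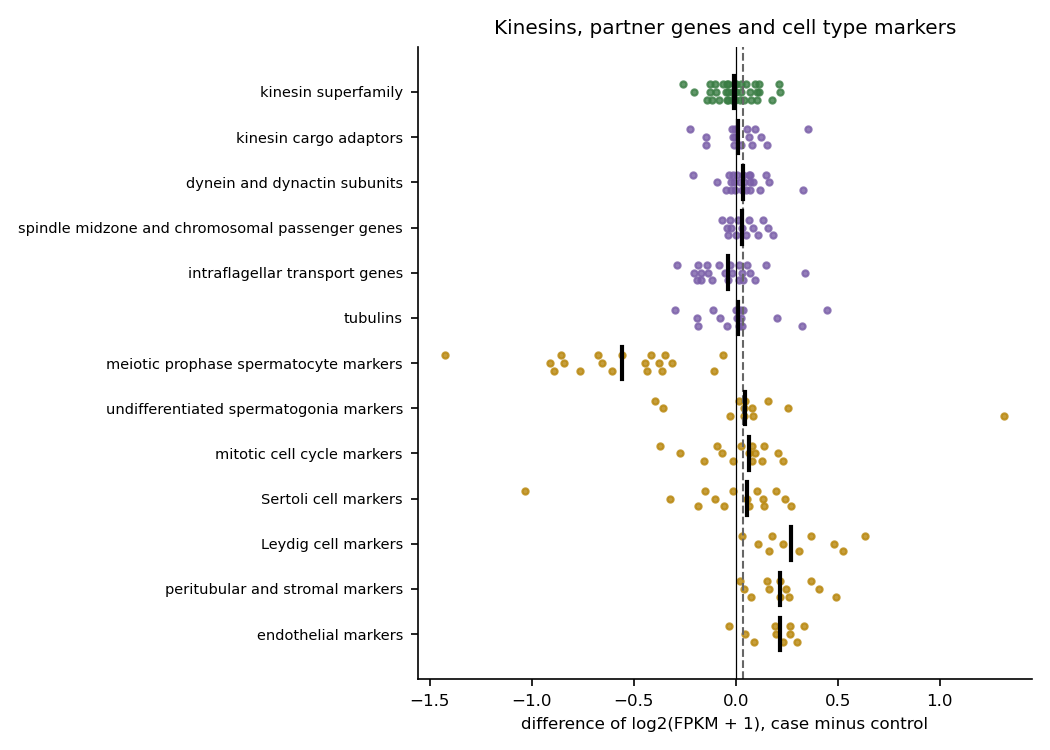
Difference of log2(FPKM + 1), case minus control, for kinesins (green), partner genes (purple) and cell type markers (gold), with the median of each list (black bars), 0 (solid line) and the median of all genes (dashed line). The medians of kinesins and partner lists sit near 0, meiotic markers to the left at a median of -0.56 and Leydig markers to the right at 0.27.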

How the data were processed

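Reads were aligned with TopHat2 version 2.0.9 to mm10, per the submitters' processing notes. The authors deposited FPKM in 1 case and 1 control column, per the file headers; the sources used here do not name the program that made them. The deposited p-values and q-values are the authors'; the q-values match a Benjamini-Hochberg adjustment over the 13629 rows of status OK to within 2.26e-06. The deposited log2 ratio, which the authors wrote as control over case, was not used for directions.

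FPKM was summed over the rows of a gene with Python 3.11.15, and genes with a mean of at least 1 FPKM were kept. Starts had 1 added, since 13888 then equalled RefSeq gene starts, against 978 as deposited. Symbols were matched by accession for 29072 rows. Named genes are every kinesin, Lin28a, the 3 most abundant genes of each partner list with any at p under 0.05, and up to 2 markers of a list; Cenpe, Kifc5b, Rhox5 and the unnamed Klc2 row were chosen after their values were seen. Members and lists were chosen with earlier results of these data known. The planned limma test could not be run on 1 value per group. The calculations were tested on simulated data.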

Additional observations from a re-analysis of the deposited data

How the results depend on the processing

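Alternatives were pseudocounts of 0.1 and 0.5, a mean of at least 5 FPKM or no filter, median-of-ratios rescaling (which divides the case column by 1.03), the highest row of a gene, rows of status FAIL left out and, chosen after seeing the data, the unnamed Klc2 row added. The kinesin median lay between -0.0416 and -0.00469 under all 8, the counts past 1.5-fold stayed at 0 in both directions, and the authors' calls stayed at 0 with p adjusted again over rows of at least 1 or 5 FPKM and at 0.10. The kinesins counted were not the same under each alternative. By the highest row Kif9 fell under 1 FPKM and was left out, and Klc1 and Kif21a left with the FAIL rows. All 48 group medians and 40 partner medians moved by under 0.1, but by the highest row the kinesin-2 median turned from -0.0167 to 0.0764 and the kinesin-3 median was 0.0565 in place of 0.110. Small medians also changed sign: the ciliary group to 0.0525 at 5 FPKM, kinesin-1 to -0.00219 without FAIL rows and -0.0352 rescaled, and cargo adaptors to -0.00211 at 5 FPKM or with no filter. At 5 FPKM the ciliary group held Kif7 alone, so 0.0525 is the difference of that gene. Of 313 values of single kinesins, 4 moved by more: Kif9 to -0.407 with a pseudocount of 0.1, and, by the highest row alone, Klc1 to -0.319, Kif17 to 0.0972 and Kif1b to 0.00777. The meiotic marker median was -0.444 by the highest row, at 5 FPKM and without FAIL rows. No paired analysis was possible because the table gives no value per library, and no library could be left out either. Depth is unknown and sets no interval.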
